A study of Mus musculus with 8 samples.

Results

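Germline genes were followed through the RNA of 4 mouse tumor cell lines. The 10 genes were taken by symbol from the table of 18768 genes. They were Tdrd1, Crisp1, Dazl, Mael, Sycp3, Ddx4, Piwil2, Tdrd9, Stk31 and Hormad1, and 7 of them were in the table. The table lists genes with at least 20 counts summed over the 8 libraries, so Mael, Stk31 and Hormad1 were below that total. Tdrd1 and Crisp1 were picked because their counts rose from the floor in the lines labelled IRF8 KO, so their differences between the labels and between the lines are a description here and were not tested. The other 8 are genes known for their work in germ cells.

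The lines came from fibrosarcomas that methylcholanthrene (MCA), a chemical carcinogen, had induced under the skin of mice. The label IRF8 KO stands on MC010 and MC011, which came from IRF8 knockout mice. The label WT stands on MC654 and MC659, which came from wild-type C57BL/6 mice. The tumor cells were passaged in culture until they were stable, and their messenger RNA was sequenced with a stranded library kit. Each line gave 2 libraries, which are not stated to be separate cultures, so p-values measure the spread between these libraries, and only 2 lines stand on each side. A comparison of 2 lines with 2 cannot reach an exact p below 0.333. The ages and sexes of the mice are not given in the sources used here, and the passage of the whole tumor mixture means that a line need not be 1 clone.

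The libraries held 74063616 to 116206078 counts. Levels are given as CPM, which are counts scaled for depth by the TMM method, and 3 counts, taken as the floor of a library, correspond to 0.0262 to 0.0408 CPM. Irf8 RNA was higher in the lines labelled IRF8 KO, with 442 and 347 counts in MC010 and 32 and 10 in MC011. It had 1 and 2 counts in MC654, and 1 and 0 in MC659. The paper's PCR genotyping of genomic DNA gave MC654 and MC659 as WT, and MC010 and MC011 as KO. The counts cover the whole gene and do not show whether the targeted part is read. The lines are called by their labels throughout. All 8 fibroblast markers were in the table, with a summed level of 9505 to 10450 CPM in the libraries labelled IRF8 KO and 14390 to 16140 CPM in those labelled WT. Fn1 had the largest difference, with means of 1586 CPM under the label IRF8 KO and 7970 CPM under WT. Col1a1 and Col1a2 also had lower means under IRF8 KO, and Col3a1 was level, at 1020 and 1027 CPM. Col1a1 was low in MC010 only, at 87.4 CPM, against 439.8 in MC011, 275.7 in MC654 and 471.5 in MC659. Vim (6218 against 4743 CPM), Pdgfrb, Thy1 and S100a4 had higher means under IRF8 KO, so the markers did not move as 1 group. The higher mean of Pdgfrb came from MC011, at 275.9 CPM, with MC010 at 97.4 CPM. Of 10 markers of blood cells, 4 were in the table, with sums of 5.72 to 7.38 CPM and 9.67 to 11.4 CPM. Both sums thus separated the labels, and their part in the differences between the labels was not tested.

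Germ cells silence transposons with small RNAs called piRNAs, which PIWI proteins such as Piwil2 carry. Tudor-domain proteins such as Tdrd1 and Tdrd9 bind the methylated arginines of PIWI proteins and hold the machinery together in granules that also contain the RNA helicase Ddx4. Meiosis uses another set of proteins, among them Sycp3 and Hormad1 of the chromosome axis. Most genes of these groups are shut off in body cells, by DNA methylation of CpG-rich promoters and by a Polycomb complex that holds Mga, Max, E2f6 and Pcgf6 and can bind E-box and E2F sequences. Crisp1 differs from the rest, because it is a secreted protein of the epididymis that coats sperm and is not a product of germ cells.

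The promoters are shown first, because the members share a short sequence there. RefSeq promoter windows of GRCm38.p6, the build of the table, run from 250 bases before to 50 bases after a start and were found for 9 of the 10 genes, all except Piwil2. The E-box CACGTG, which reads the same on both strands, occurred in the windows of 7 of these 9 genes (77.8%), against 8.11% of 25748 genes with a window. The 46 bases around an E-box of each gene follow, 5′ to 3′ on the strand of the gene, with the E-box in capitals. They lie at chr19:56826178-56826223 for Tdrd1, chr13:112652314-112652359 for Ddx4, chr10:88459524-88459569 for Sycp3, chr3:95559637-95559682 for Hormad1, chr6:49395464-49395509 for Stk31, chr12:111971444-111971489 for Tdrd9 and chr1:166238942-166238987 for Mael.
Tdrd1: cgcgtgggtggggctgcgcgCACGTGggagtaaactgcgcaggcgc
Ddx4: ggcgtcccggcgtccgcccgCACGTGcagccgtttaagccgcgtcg
Sycp3: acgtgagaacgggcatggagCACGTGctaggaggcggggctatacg
Hormad1: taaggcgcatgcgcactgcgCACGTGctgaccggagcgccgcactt
Stk31: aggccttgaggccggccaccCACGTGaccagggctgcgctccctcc
Tdrd9: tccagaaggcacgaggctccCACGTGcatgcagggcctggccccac
Mael: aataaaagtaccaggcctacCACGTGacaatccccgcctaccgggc
The E-box began 11 bases before the first start of Tdrd1, 29 before that of Ddx4, 43 before that of Sycp3, 20 before that of Hormad1, 55 before that of Stk31, 95 before that of Tdrd9 and 223 before that of Mael. Sycp3, Hormad1 and Tdrd9 each held a second E-box in the window. No E-box was found in the windows of Dazl and Crisp1. These matches are letters in a window and were not read as binding sites.

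The 250 bases before the starts of the 2 genes with the largest counts show how unlike their promoters are. Tdrd1 is read at chr19:56825959-56826208 on the plus strand and Crisp1 at chr17:40319208-40319457 on the minus strand, with any E-box in capitals.
Tdrd1: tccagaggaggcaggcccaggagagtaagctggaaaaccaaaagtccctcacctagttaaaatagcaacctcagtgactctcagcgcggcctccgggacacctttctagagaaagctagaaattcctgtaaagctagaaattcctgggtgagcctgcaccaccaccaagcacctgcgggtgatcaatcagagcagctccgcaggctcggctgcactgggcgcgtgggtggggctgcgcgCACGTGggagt
Crisp1: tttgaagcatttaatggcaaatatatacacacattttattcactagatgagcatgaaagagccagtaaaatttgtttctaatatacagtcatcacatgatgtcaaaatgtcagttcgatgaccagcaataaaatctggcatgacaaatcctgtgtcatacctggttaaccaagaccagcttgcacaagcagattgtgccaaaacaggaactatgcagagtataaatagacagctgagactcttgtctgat
The whole 300-base window of Tdrd1 held 20 CpG dinucleotides, and its ratio of observed to expected CpG was 0.733. The window of Crisp1 held 2 CpG dinucleotides, with a ratio of 0.181. The median over 31396 promoter windows was 0.389.

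**Figure D1:**
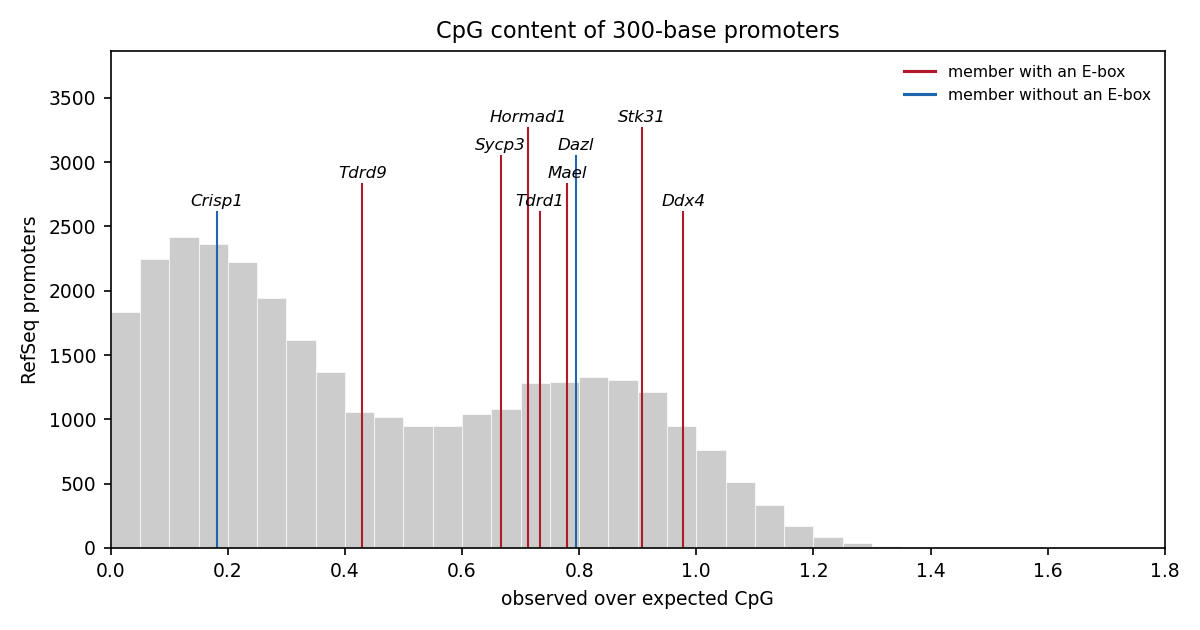
Ratio of observed to expected CpG (x axis) in 31396 RefSeq promoter windows of 300 bases (grey bars, number of windows), with the first start of 9 germline genes as vertical lines, in red where the window holds an E-box and in blue where it does not. Crisp1 lies at 0.181, Tdrd9 at 0.43, and the other 7 genes between 0.666 and 0.978.

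Tdrd1 (ENSMUSG00000025081, chr19:56826209-56870012, plus strand) had 2086 and 1386 counts in MC010. It had 25 and 13 counts in MC011 and 0 in each of the 4 libraries labelled WT. All 4 libraries labelled IRF8 KO were above the floor and all 4 labelled WT were at 0, but the 2 lines labelled IRF8 KO were far apart. The level was 18.2 and 18.9 CPM in MC010 but 0.259 and 0.165 CPM in MC011. Against the mean floor of the WT-labelled libraries, 0.0346 CPM per library, the level of Tdrd1 was at least 535-fold higher in MC010. In MC011 the bound was at least 6.12-fold. MC011 thus held 1.14% of the MC010 level. The rise that picked the gene lay mostly in MC010, so this difference was not tested either.

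Crisp1 (ENSMUSG00000025431, chr17:40293758-40319207, minus strand) followed the same order of lines. It had 6971 and 5118 counts in MC010, 33 and 33 in MC011, 0 and 1 in MC654, and 0 and 0 in MC659. The levels were 60.9 and 69.6 CPM in MC010 but 0.342 and 0.418 CPM in MC011. With 1 count in all 4 WT-labelled libraries together, the ratio of MC010 to the WT-labelled lines was 22300, with an exact 95% counting interval of 4000 to 881000, and that of MC011 was 130, with an interval of 22.6 to 5230. Both intervals cover counting error only, in counts pooled over libraries. Crisp1 was picked on this rise, so the intervals describe the counts and are no test of the difference. MC011 held 0.582% of the MC010 level.

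Per kilobase of exon in the GENCODE M21 annotation, Crisp1 stood above Tdrd1 in MC010, with 46.1 against 3.41 RPKM. In MC011 the values were 0.268 RPKM for Crisp1 and 0.0389 RPKM for Tdrd1. Of the 50-base words of Crisp1 transcripts, 2.41% also occur in Crisp3, its neighbour in the gene family, which was not in the table. In a bulk culture, fewer cells with the RNA and less RNA in each cell cannot be told apart, so the counts of MC011 may stand for few cells or for a low level in many.

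**Figure D2:**
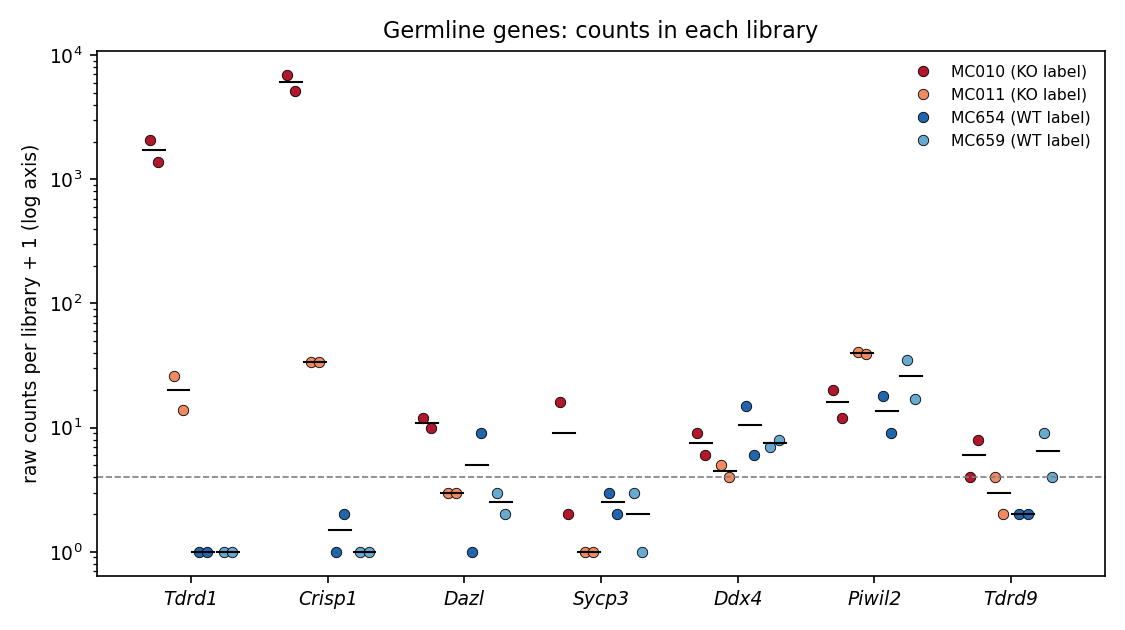
Raw counts plus 1 (y axis, log scale) of the 7 germline genes in the table (x axis) in each of the 8 libraries. Points are libraries, short black lines are the mean of a line's 2 libraries, and the dashed line marks 3 counts. Tdrd1 and Crisp1 reach 2086 and 6971 counts in MC010, while no library exceeds 40 counts for the other 5 genes.

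The other 5 genes in the table stayed far below these levels. No library had more than 40 counts for any of them, and none reached 1 CPM. Only Piwil2 passed the filter on low counts, so Dazl, Sycp3, Ddx4 and Tdrd9 were not tested.

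Piwil2 encodes the PIWI protein that Tdrd1 binds in the germline. It had 19 and 11 counts in MC010, 40 and 38 in MC011, 17 and 8 in MC654, and 34 and 16 in MC659. It was thus highest in MC011, at 0.415 and 0.481 CPM, and in MC010, the line with much Tdrd1, it was at 0.166 and 0.15 CPM. Between the labels the log2 difference was 0.49 (SE 0.55, adjusted p = 0.522). In this comparison 13.7% of 15153 genes were called higher and 8.72% lower at an adjusted p under 0.05 and a log2 difference over 0.59. No member other than the picked pair was called by edgeR or DESeq2, and none had an unadjusted p under 0.05, but Piwil2 was the 1 member tested.

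MC010 had less Piwil2 than MC011, with a log2 difference of -1.48 (SE 0.56, adjusted p = 0.0301). In this comparison 16.3% of 16703 genes were called higher and 16.3% lower. MC011 had more Piwil2 than the WT-labelled lines, by 1.12 (adjusted p = 0.0428), where 31.3% of genes were called in either direction. Both calls were lost with DESeq2, at adjusted p of 0.0506 and 0.0851. The first was also lost with any library of MC010 or MC011 left out (adjusted p = 0.0642 to 0.109), and the second with either library of MC011, MC654 replicate 2 or MC659 replicate 2 left out (adjusted p = 0.1 to 0.178). MC010 did not differ detectably from the WT-labelled lines (log2 difference -0.36, adjusted p = 0.556), where 37.1% of genes were called in either direction. Piwil2 was not called between MC654 and MC659 either (-0.91, adjusted p = 0.368), where 1.16% of genes were called higher and 3.42% lower. In order of mean level the lines were MC011 (0.448 CPM), MC659 (0.281), MC010 (0.158) and MC654 (0.149), and of the neighbours in this order MC010 and MC654 overlapped.

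Ddx4, the germ cell RNA helicase known as Vasa, had 8 and 5 counts in MC010, 4 and 3 in MC011, 14 and 5 in MC654, and 6 and 7 in MC659. Its lowest libraries were those of MC011, and the lines labelled IRF8 KO and WT overlapped. Tdrd9, a Tudor-domain helicase of the piRNA pathway, had 3 and 7 counts in MC010, 3 and 1 in MC011, 1 and 1 in MC654, and 8 and 3 in MC659, with no separation of the labels. Mael, which acts in piRNA-directed transposon silencing, and Stk31, a Tudor-domain kinase of germ cells, were not in the table.

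Dazl, an RNA-binding protein that germ cells need for their development, had 11 and 9 counts in MC010, 2 and 2 in MC011, 0 and 8 in MC654, and 2 and 1 in MC659. Both MC010 libraries were above all others, but MC654 replicate 2 came within 1 count of MC010 replicate 2. Sycp3, a protein of the synaptonemal complex, had 15 and 1 counts in MC010, 0 and 0 in MC011, 2 and 1 in MC654, and 2 and 0 in MC659. MC010 replicate 1 held 15 of the 21 counts, and the other library of that line was within the range of the WT-labelled ones. The exons of Sycp3 overlap Chpt1 on the opposite strand, and the strand setting of the counting is not given in the sources used here. Hormad1, a protein of the meiotic chromosome axis, was not in the table.

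The rest of the germline programme was then counted in 4 lists of genes, for the piRNA pathway, meiosis, germ cell regulators, and spermatids and sperm. Of 98 listed genes outside the members, 40 were in the table (40.8%), against 66.6% of the protein-coding genes of chromosomes 1 to 19. Only 14 reached a mean of 1 CPM in any line. The spermatid list had the fewest, with 4 of 20 genes in the table and 0 at 1 CPM.

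Between the labels, 21 of the listed genes were tested, 1 rose and 6 fell in the lines labelled IRF8 KO, beside 13.7% and 8.72% of all genes. The median log2 difference of the 21 was -0.353, against 0.021 over all genes tested. Sycp2, however, passed the filter on low counts only through the libraries labelled IRF8 KO, where it was high. Hfm1 and Zpbp passed only through those labelled WT. The counts and the median were thus partly set by the filter and were not read against all genes. Of the 6 genes that fell, 3 act in the piRNA pathway. Tdrkh, a Tudor-domain partner of PIWI proteins on mitochondria, ranged from 908 to 1420 counts in MC010 and MC011 and from 4422 to 5386 in MC654 and MC659, a log2 difference of -2.24 (SE 0.09, adjusted p = 3.06e-06). The groups did not overlap. Exd1, a cofactor of piRNA production, had a log2 difference of -1.09 (adjusted p = 0.00164), and Tdrd7, a Tudor-domain protein of germ granules, one of -0.66 (adjusted p = 0.00182). In meiosis, Hfm1, a helicase of meiotic crossover, had 1 and 0 counts in MC010, 2 and 0 in MC011, 54 and 38 in MC654, and 56 and 50 in MC659, which is 69.2 times as much in the WT-labelled lines with a counting interval of 23.3 to 338 (adjusted p = 0.000212 by edgeR). Msh5, also of crossover, had -0.84 (adjusted p = 0.00703). Zpbp, a protein of the sperm acrosome, was also lower (adjusted p = 0.0138), with at most 10 counts in MC010 and MC011 and 18 to 44 in the WT-labelled libraries. Sycp2, the partner of Sycp3 in the synaptonemal complex, was the 1 gene that rose. It had 86 and 58 counts in MC010, 19 and 14 in MC011, and 3 to 7 in the WT-labelled libraries, a log2 difference of 3.24 (adjusted p = 0.0064).

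These counts depended on how the lines were treated. With the counts of each line summed, 0 of the listed genes were called by edgeR, with 8 at an unadjusted p under 0.05. With the line as a random block in limma-voom 3 were called, and leaving out MC010 or MC659 gave 16 and 3.

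Between MC010 and MC011, 32 listed genes were tested, of which 3 were higher in MC010 and 7 were lower (median log2 difference 0.232, against 0.006 over all genes). The share called was 31.2% of the 32, beside 16.3% of all genes in each direction. Stag3 and Ccdc36, however, passed the filter on low counts only through MC011, and Tex14 only through MC010, where they were high. The share was thus partly set by the filter and was not read against that of all genes. Piwil4, the nuclear PIWI protein, had 91 and 68 counts in MC010, 0 and 10 in MC011, and 146 to 175 in the WT-labelled libraries, so MC010 was higher than MC011, with a log2 difference of 3.86 (adjusted p = 1.32e-05). This value was 2.74 without MC011 replicate 1 and 9.27 without MC011 replicate 2. Against the WT-labelled lines MC010 had a log2 difference of -1.14 (adjusted p = 0.00419). Tex14, which keeps the bridges between germ cells open, had 40 and 48 counts in MC010, 1 and 5 in MC011 and 4 to 15 in the WT-labelled libraries, a log2 difference of 3.78 (adjusted p = 0.000586), which ran from 2.94 to 5.41 with 1 library of MC011 left out. Sycp2 was higher in MC010 by 2.03 (adjusted p = 0.00143).

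The 7 genes lower in MC010 than in MC011 followed different patterns over the lines. Ddx25, a testis RNA helicase, had 428 and 338 counts in MC011, 5 and 2 in MC010, and 21 to 28 in the WT-labelled libraries, a log2 difference of MC010 from MC011 of -6.82 (SE 0.36, adjusted p = 5.1e-11). Stag3, the meiotic cohesin subunit, had 188 and 150 counts in MC011, 0 and 5 in MC010, and 1 to 4 in the WT-labelled libraries, a log2 difference of -6.06 (SE 0.63, adjusted p = 3.45e-07). It was -4.80 without MC010 replicate 1 and -10.45 without MC010 replicate 2. Tex15, which joins Piwil4 in transposon silencing, had a log2 difference of -1.54 (adjusted p = 4.75e-05), with 222 and 205 counts in MC011 and 69 to 115 in the other 6 libraries. Mei4, needed for the breaks that start meiotic recombination, was high in MC011 (73 and 57 counts) and in MC659 (89 and 56), and low in MC010 (2 and 12) and MC654 (1 and 1). The log2 difference of MC010 from MC011 was -3.20 (adjusted p = 0.000267), and -2.18 without MC010 replicate 1 or -5.29 without MC010 replicate 2. Mei4 was the 1 listed gene called between MC654 and MC659 (log2 difference -5.94, adjusted p = 0.000115). Ccdc36, Dnd1 and Zpbp, with log2 differences of -2.02, -0.83 and -2.64, were lost in 4 of 14, 2 of 15 and 5 of 15 alternatives.

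**Figure D3:**
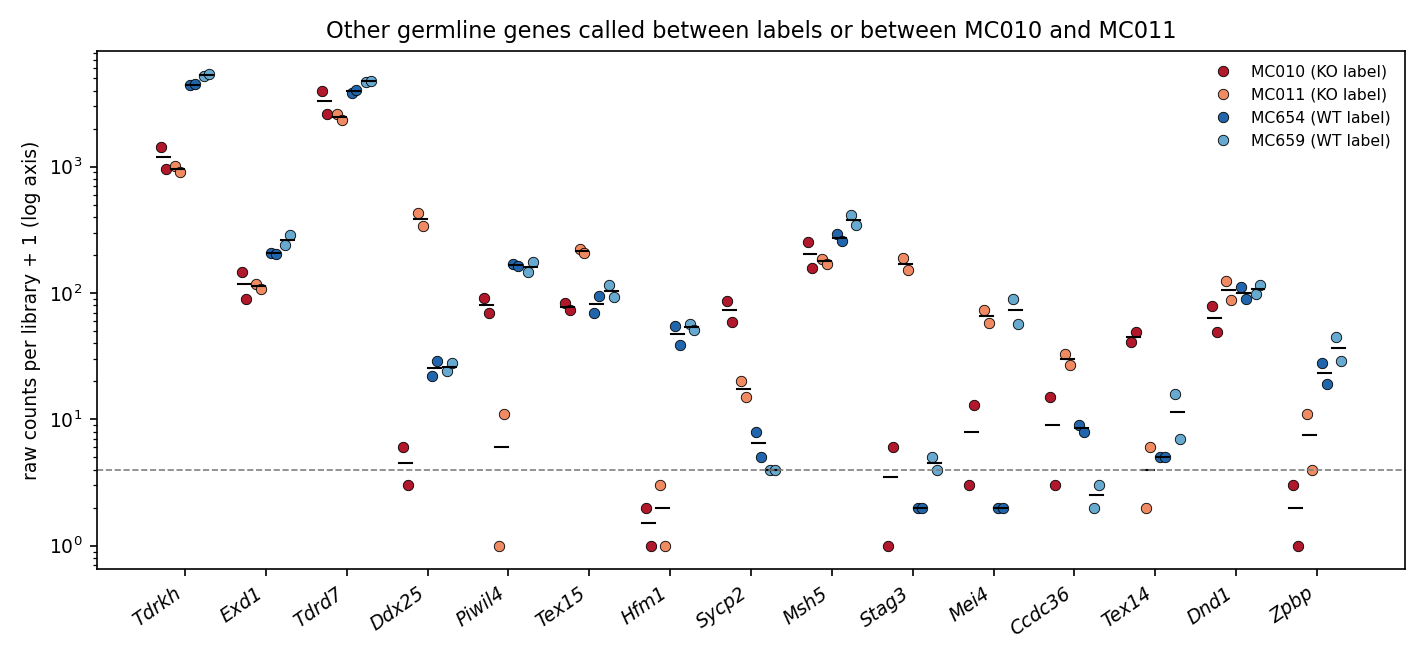
Raw counts plus 1 (y axis, log scale) of the 15 listed germline genes called between the labels or between MC010 and MC011 (x axis), in each library. Points are libraries, black lines are means of a line's 2 libraries, and the dashed line marks 3 counts. Ddx25 and Stag3 are high in MC011, Tex14 and Sycp2 in MC010, and Tdrkh and Hfm1 in the WT-labelled lines.

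Crisp1 belongs to the CAP family of secreted and membrane-bound cysteine-rich proteins. Of 13 other family genes 7 were in the table, and all 5 that were tested differed between MC010 and MC011, 3 higher and 2 lower in MC010, beside 16.3% of all genes in each direction. Crispld1, however, passed the filter on low counts only through MC010, where it was high. It also starts close to Pi15 on chromosome 1, at 17727045 against 17601901. The 5 are thus not independent results and were not read as a trait of the family. Crispld1 had 737 and 511 counts in MC010, 2 and 0 in MC011, 0 and 0 in MC654, and 1 and 0 in MC659. The ratio of MC010 to MC011 was 583 with a counting interval of 161 to 4820 (adjusted p = 3.95e-11 by edgeR). Pi15 had 5566 and 4106 counts in MC010, and 44 to 106 in the other 6 libraries, a log2 difference from MC011 of 6.59 (adjusted p = 7.65e-16). Glipr1 was higher in MC010 by 1.93 (adjusted p = 2.47e-13). Crispld2 and Glipr2 were lower, at -2.50 and -1.33 (adjusted p = 3.97e-10 and 2.24e-12). Crisp2, the testis member next to Crisp1 on the chromosome, had at most 10 counts in a library. Between the labels Pi15 was called higher (4.60, adjusted p = 0.0423) and Glipr2 lower (-1.13, adjusted p = 0.0299), but with line MC010 left out Pi15 turned to -1.02 (adjusted p = 0.0088), and with the replicate number as a block both calls were lost (adjusted p = 0.0681 and 0.0507).

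All 27 genes listed for germline gene silencing were in the table and above 1 CPM in a line. Between the labels 1 rose and 0 fell, a share of 3.7% of the list, beside 13.7% of all genes called higher and 8.72% lower. It was Ring1, a ubiquitin ligase of Polycomb complexes, with a log2 difference of 0.77 (adjusted p = 0.0244), and its call was lost in 11 of 21 alternatives, among them with MC010 left out (0.31, adjusted p = 0.0288, below the threshold on the difference). Between MC010 and MC011, 2 genes were higher and 3 lower, 18.5% of the list, beside 16.3% of all genes in each direction. Uhrf1, which brings the DNA methyltransferase Dnmt1 to replicated DNA, had 35531 to 58370 counts in MC010 and 21662 to 27577 in the other 6 libraries, a log2 difference of 0.83 (SE 0.05, adjusted p = 3.75e-10). Ring1 was higher by 0.78 (adjusted p = 3.58e-07). Max, the partner of Mga at E-boxes, stood at 49.9 CPM in MC010 and at 95.4 CPM in MC011, a log2 difference of -0.93 (SE 0.05, adjusted p = 4.5e-11), and the WT-labelled lines were at 99.2 and 95.3 CPM. Dnmt3l, a cofactor of de novo methylation in germ cells, had 662 and 623 counts in MC011 and 116 to 273 in the other libraries, a log2 difference of -1.91 (SE 0.18, adjusted p = 8.23e-08). Tet1, which oxidises methylated cytosine, had -0.61 (adjusted p = 0.000197). Dnmt1, Dnmt3a, Dnmt3b, Mga, E2f6 and Pcgf6 were not called in either comparison. Of these, E2f6 had a log2 difference between the labels of 0.57 (adjusted p = 0.00165), just under the threshold on the difference.

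Somatic cells of the gonad and epididymis were checked by 21 markers, of which 5 were in the table. Between MC010 and MC011, 4 of the 5 were called, beside 16.3% of all genes in each direction. Foxl2 and Dhh, however, passed the filter on low counts only through the line where they were high. The 4 of 5 were thus partly set by the filter and were not read against that share. Their summed level was 1.55 to 2.04 CPM in MC010, 4.5 to 5.13 in MC011, and 1.22 to 1.58 in the WT-labelled libraries. Foxl2, a factor of ovarian granulosa cells, had 232 and 170 counts in MC011 and at most 4 in any other library, a log2 difference of MC010 from MC011 of -6.67 (adjusted p = 1.85e-08), and of -10.6 without MC010 replicate 1. Amh and Rnase10 were also higher in MC011 (-3.19 and -2.62, adjusted p = 0.00188 and 0.0261), Rnase10 losing its call without either library of MC010 or without MC011 replicate 2 (adjusted p = 0.0665 to 0.152), and Dhh was higher in MC010 (2.56, adjusted p = 0.00425), each with at most 70 counts in a library. The epididymis genes Lcn5, Lcn8, Lcn9, Spag11b and Cst8 were not in the table, and neither were Wt1 and Nr5a1 of the gonad. Among blood cell markers, Ptprc had 18 and 13 counts in MC010, 0 and 0 in MC011, and 1 to 2 in the WT-labelled libraries (adjusted p = 0.000832 between MC010 and MC011). Ptprc also passed the filter on low counts only through MC010, where it was high, so its call was partly set by the filter. Of the other 3 in the table, Csf1r, the receptor of macrophage growth factor, had 18 to 46 counts in MC010 and MC011 and 78 to 159 in the WT-labelled libraries, a log2 difference between the labels of -1.93 (adjusted p = 0.002). Cd68 was at -0.58 between the labels (adjusted p = 0.00838, under the threshold on the difference), and Cd79a had 2 to 17 counts per library. The part of these markers in the difference of Tdrd1 and Crisp1 was not tested.

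The genes beside Tdrd1 and Crisp1 on the chromosomes differed in whether they moved with them. Ccdc186 starts 4.02 kb from Tdrd1 on the other strand. Its counts ran from 2509 to 3829 in MC010 and MC011 and from 2951 to 3787 in the WT-labelled libraries, a log2 difference between the labels of -0.14 (adjusted p = 0.203). Farther away, Adrb1 at 104 kb, Afap1l2 at 182 kb and Ablim1 at 489 kb were higher in the lines labelled IRF8 KO. Ablim1 stood at 7.8 CPM in MC010, at 7.75 CPM in MC011, and at 0.391 and 0.36 CPM in MC654 and MC659, a log2 difference between the labels of 4.37 (SE 0.23, adjusted p = 9.98e-06). It did not separate MC010 from MC011 (0.01, adjusted p = 0.962), unlike Tdrd1. Vwa2, at 48 kb, had 22 and 27 counts in MC011 and at most 4 elsewhere. Within 1 Mb of Tdrd1, 5 of 13 tested genes were higher in MC010 than in the WT-labelled lines and 0 were lower. In MC011 5 were higher and 0 lower. Of all genes, 37.1% and 31.3% were called in either direction, so the share called is near the background. The calls near Tdrd1 went 1 way only. The median log2 differences of the 13 genes were 0.541 in MC010 and 0.519 in MC011, against 0.019 and 0.018 over all genes. Adrb1, however, passed the filter on low counts only through the lines labelled IRF8 KO, and Vwa2 only through MC011. The calls, their direction and the medians were thus partly set by the filter and were not read as a trait of the region. The cause was not tested.

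Within 1 Mb of Crisp1, 4 of 7 tested genes were higher in MC010 than in the WT-labelled lines and 0 were lower, beside 37.1% of all genes called in either direction. In MC011 0 were higher and 1 was lower, Mut (-1.52 on the log2 scale), beside 31.3% of all genes. Among the 4, Esp15 and Esp16 passed the filter on low counts only through MC010, where they were high. The 4 of 7 were thus partly set by the filter and were not read as a trait of the region. The nearest of the 4 were 9130008F23Rik at 561 kb (1.86 on the log2 scale against the WT-labelled lines) and Cenpq, a kinetochore gene, at 616 kb (0.67). Of the genes nearest to Crisp1 in the table, Tgif2-ps2 at 204 kb, CT010467.1 at 470 kb and Crisp2 at 488 kb were not tested, and Gm42418 at 472 kb was not called.

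**Figure D4:**
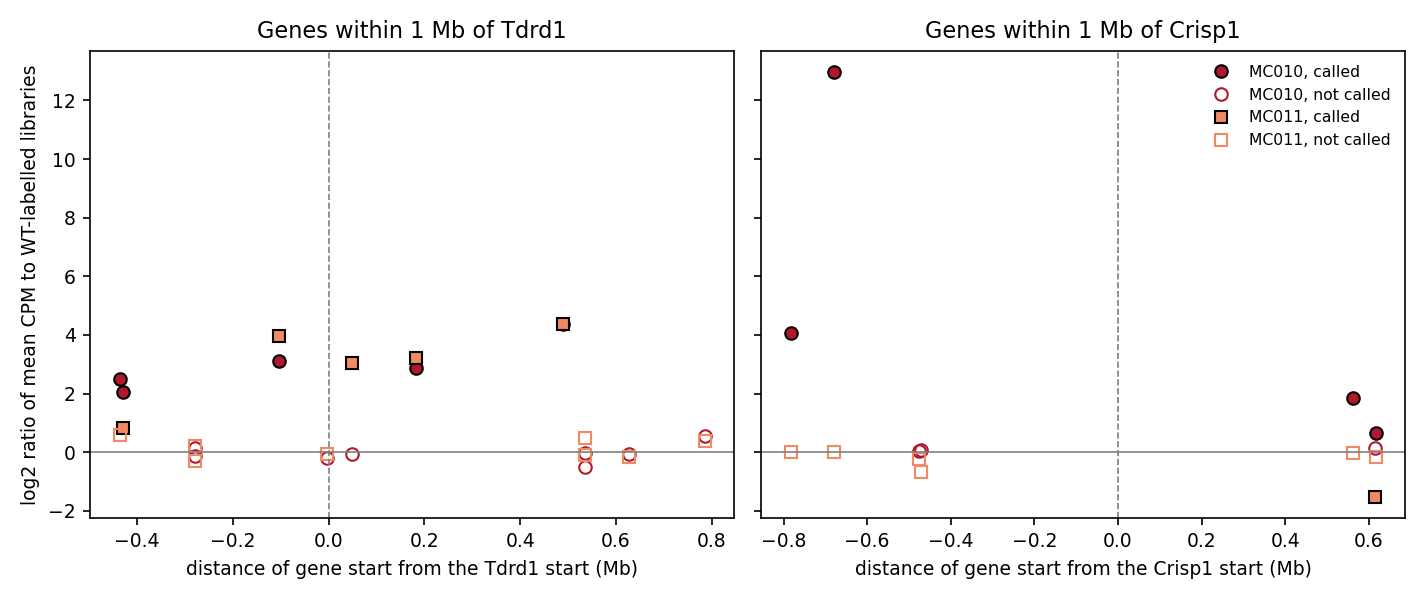
Log2 ratio of mean CPM in MC010 (circles) or MC011 (squares) to the mean of the WT-labelled libraries (y axis) for tested genes within 1 Mb of Tdrd1 (left) or Crisp1 (right), by the distance between gene starts in Mb (x axis). Means below the value of 3 counts were set to it, and filled symbols are genes called by edgeR. Ccdc186, 4.02 kb from Tdrd1, lies near 0, and the 4 filled circles around Crisp1 have no filled square beside them in the same direction.

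To place the trace of Tdrd1 and Crisp1 in MC011, the genes with at least 10 CPM in MC010 and no more than 3 counts in every WT-labelled library were listed, by a rule chosen after the data were seen. There were 14. Tdrd1 and Crisp1 were 2 of them, so their place in the list follows from their selection. The level in MC011 as a share of that in MC010 was 97.5% for Bmp4, 91.6% for Zrsr1, 79.2% for Scara5, 17.4% for Aldh3a1 and 2.65% for Tmem108. Below Tdrd1 at 1.14% and Crisp1 at 0.582% came Klhl1 at 0.392% and Cck at 0.2%. For 5 genes both MC011 libraries were at or under 3 counts. Esp15, a pheromone gene with 278.3 CPM in MC010, the highest level of the 14, had 0 counts in both, as had Rpl39l and Scg2. Esp15 also lies within 1 Mb of Crisp1. Esp15 RNA was thus more abundant than Crisp1 RNA in MC010 and was not found in MC011, where Crisp1 had 33 and 33 counts.

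**Figure D5:**
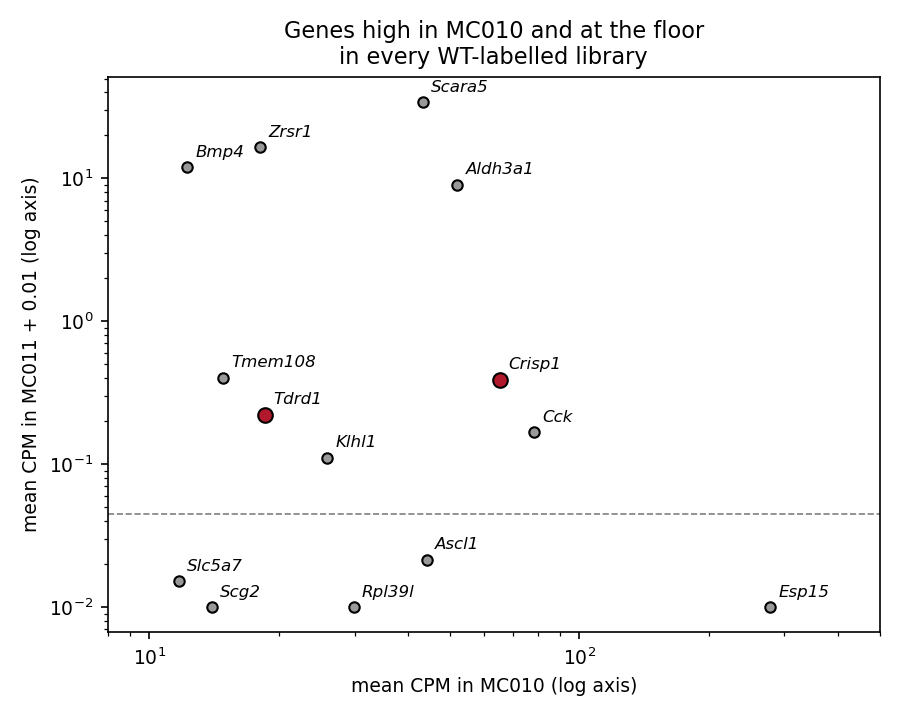
Mean CPM in MC010 (x axis, log scale) and mean CPM in MC011 plus 0.01 (y axis, log scale) of 14 genes at 10 CPM or more in MC010 and at most 3 counts in every WT-labelled library. Tdrd1 and Crisp1 are in red, and the dashed line marks 3 counts in MC011. Esp15, Rpl39l and Scg2 had 0 counts in MC011, and Bmp4, Zrsr1 and Scara5 were near their MC010 level.

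The genes most like the picked pair were sought by Pearson's r of log2(CPM + 0.1) over the 8 libraries, which come from 4 lines and share their depth. Tdrd1 and Crisp1 had an r of 0.9983 with each other. Both were picked for a rise from the floor in the same lines, so a high r follows largely from their selection. Nearest to Tdrd1 were Crhr1, a receptor of corticotropin-releasing hormone (0.9998), Rimbp2, Gm4610, Gm47547 and D430036J16Rik. Each had 0 counts in all WT-labelled libraries, and Crhr1 had 137 and 97 counts in MC010 and 8 and 5 in MC011. Nearest to Crisp1 were Gm16565 (0.9997), Adh7, Prrx1, Meis2 and Crhr1. Adh7, a retinol and alcohol dehydrogenase, and the mesenchymal factors Prrx1 and Meis2 were present in every library, with Prrx1 at 1022 CPM in MC010, 438.8 in MC011, 328.3 in MC654 and 338 in MC659. With a pseudocount of 1 CPM, 0 of the 5 genes nearest to Tdrd1 and 1 of the 5 nearest to Crisp1 stayed among the nearest 5.

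The promoter features did not sort the members by level. The window of Tdrd1 held an E-box and so did those of Ddx4, Sycp3 and Tdrd9, which were near the floor, and of Mael, Stk31 and Hormad1, which were not in the table. The core of the E2F site, TCCCGC on either strand, occurred in 4 of the 9 members' windows (44.4%), against 22.3% of all genes, and the CRE TGACGTCA in 0, against 2.08%. In the 4 germline lists the E-box occurred in 5 of 16 piRNA genes with a window (31.2%), 6 of 26 meiosis genes (23.1%), 3 of 15 germ cell regulators (20%) and 0 of 16 spermatid genes. Outside them it occurred in 6 of 24 silencing genes (25%), 2 of 9 CAP family genes (22.2%) and 1 of 14 gonad and epididymis markers (7.14%). Fibroblast and blood cell markers had it in 0 of 4 and 0 of 6. The E-box was thus not confined to the germline lists. The share among the members was thus above that in each of these lists. The windows of Ddx25 and Stag3, which were looked up after their high counts in MC011 were seen, each held an E-box and an E2F core, with CpG ratios of 0.973 and 1.063. Those of Sycp2, Tex14 and Piwil4 held no E-box.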

How the data were processed

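The table of the series holds, per gene and library, a raw count, which the authors made by aligning reads to GRCm38.p6 (mm10) with STAR and counting them with HTSeq, and a signal, the same counts divided by the authors' DESeq2 size factors. The submitters' processing notes name STAR 2.7.3a and HTSeq 0.11.2, and the strand setting of the counting is not given in the sources used here. The deposited table also holds the authors' own comparison (fold changes and p-values), which was not used. No gene of the sex chromosomes was analysed here. Each column of sample values matched 1 library by its name.

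Raw counts were tested with edgeR 4.0.16 (limma 3.58.1, R 4.3.3) by the robust quasi-likelihood test after TMM scaling, and p-values were adjusted over all tested genes with Benjamini-Hochberg. A call needed an adjusted p under 0.05 and a log2 difference above 0.59 in size. The comparison of labels kept 15153 genes by filterByExpr with the label as group. Comparisons involving single lines used a fit with 1 group per line and filtered by line, which kept 16703, because a gene present in 1 line only would fail the other filter. The fits were tested on simulated counts. Floors and intervals cover counting error only. The signal was used only to rescale the members' levels.

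Members and gene lists were chosen with earlier results of these data known. Named genes were all members, up to 5 called genes per list and comparison by size of the difference, the 3 nearest table genes on each side of Tdrd1 and Crisp1, the 5 genes most like each, Irf8 and markers. The genes high in MC010 and at the floor in the WT-labelled libraries, other than members, were named after their values were seen. Promoters came from RefSeq and gene models from GENCODE M21. Alternatives were DESeq2 1.42.0, other scalings and filters, no threshold on the difference, the replicate number as a block, line sums, the line as a random block, and each library or line left out.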

Additional observations from a re-analysis of the deposited data

Results flagged for a closer look

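MC010 and MC011, both labelled IRF8 KO, differed in Piwil2 by edgeR's test of that difference. The log2 difference of MC010 from MC011 was -1.48, and the call was lost in 5 of 15 alternatives.

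In 13 groups of 4 libraries, 2 had a library far from the other 3. The nominal rate of such groups by chance is about 1 in 20, which need not hold for counts at the floor. Sycp3 was at 0.131 CPM (15 counts) in MC010 replicate 1, and the other 3 libraries labelled IRF8 KO had 1, 0 and 0 counts. Crisp1 was at 0.0118 CPM (1 count) in MC654 replicate 2. The other 3 libraries labelled WT had 0 counts, so any single count would have stood apart.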

How the results depend on the processing

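Tdrd1 and Crisp1 kept their direction under every alternative run. Both were picked for a rise from the floor in these libraries, so this follows from their selection and is no support. Their fitted log2 differences of MC010 from MC011, given without a test, were 6.16 to 6.80 and 7.28 to 7.58. The members' levels moved by less than the spread of a line's libraries under the authors' size factors. Of the germline list genes, 7 were called between the labels. Of these lists, 11 were called with no filter on low counts, 0 with counts summed per line, 3 with limma-voom and the line as a random block, 16 with line MC010 left out, 11 without MC011 and 3 without MC659, and leaving out 1 library gave 7 to 9. Between MC010 and MC011, 10 of these genes were called, and 7 to 15 with 1 library left out. Members other than the picked pair called between MC010 and MC011 numbered 1, against 0 with DESeq2 and 2 with no filter, and 0 to 2 with 1 library left out, when a looser filter let in Sycp3, which rests on MC010 replicate 1. For MC010 against the WT-labelled lines the number was 0, and 0 to 1 with 1 library left out (Sycp3 without MC010 replicate 2, Dazl without MC654 replicate 2). For MC011 it was 1, against 0 with DESeq2 and 0 to 1 with 1 library left out. The direction reversed in 2 cases. Piwil2 between the labels was -0.45 with line MC011 left out, and Pi15 was -1.02 with MC010 left out. With the replicate number as a replicate block the counts were 7, 10 and 1 for the lists and 0, 1 and 0 for the members, as without it, but the label calls of Pi15 and Glipr2 were lost. The replicate differences of MC010, MC011 and MC654 correlated with each other at 0.122 to 0.177, and those of MC659 with them at -0.111 to -0.066, so not every pair of lines was above 0.1, and the numbers were not taken to pair the libraries. The causes of these shifts were not tested. Depth limits the 5 low members, where 1 count is a visible share of a library's total for the gene.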
